A study of Mus musculus with 2 samples.

Results

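The 10 genes described here encode enzymes of glycolysis in F123 cells, and were selected by name: Hk1, Hk2, Gpi1, Pfkl, Pfkp, Aldoa, Aldoc, Tpi1, Pgam1 and Eno1. They make up 10 of the 29830 gene names of the deposited expression table, and 16 of its 37178 records, because a gene has 1 record for each kind of transcript (protein-coding or long noncoding, lncRNA). F123 is a line of male mouse embryonic stem cells (mESCs) from a cross in which CAST was the paternal and S129 the maternal strain. At a base where these strains differ, the letter in a read tells from which parental chromosome it came. Cells had been passaged at least 2 times without feeders, and total RNA was sequenced in 2 biological replicates with no treatment. Their medium held leukemia inhibitory factor, at a raised concentration in the feeder-free culture. It is 1 line from 1 direction of the cross, and strain and parent of origin therefore cannot be told apart.

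Glycolysis splits glucose into pyruvate, and yields ATP and NADH without oxygen. Hexokinases trap glucose in the cell as glucose 6-phosphate, the isomerase Gpi1 turns it into fructose 6-phosphate, and phosphofructokinases commit it to the pathway. Aldolases and Tpi1 then split and even out the sugar, and the later enzymes, among them phosphoglycerate mutase and enolase, turn the products into pyruvate. mESCs are known for a high rate of glycolysis, and several steps are shared by isoenzymes, which are proteins of separate genes with the same reaction.

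The deposited values name no replicate and were taken to pool both, so that no spread between replicates could be computed. Intervals, standard errors (SE) and p-values below cover counting error of the pooled reads only. 1 read may be counted at more than 1 variant, and the records of a gene may have reads in common. In all, 18632 records had allelic reads, which summed to 16343693 (50.4% CAST). All 10 listed mESC markers had a coding record of at least 1 TPM (the usual length-scaled RNA level, here scaled to the whole transcript span with introns), from 14.4 for Esrrb to 483 for Utf1. Of 10 fibroblast feeder markers, 3 reached 1 TPM in their coding record (4 in any record), with Pdgfra highest at 4.4, and their summed coding level was 10.1 TPM against 2056 TPM for the mESC markers.

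Levels along the pathway were uneven. Among the protein-coding records of the 10 enzymes, Aldoa was highest at 223 TPM, followed by Tpi1 at 110, Eno1 at 87.7 and Pgam1 at 47.4 TPM. Gpi1 had 21.7 TPM, Pfkl 17.2, Pfkp 15.4 and Hk2 15.4 TPM. Aldoc at 6.68 and Hk1 at 3.46 TPM were the lowest of the 10. Without replicate values, it cannot be said which neighbours in this order differ beyond their spread. Against the 17956 records with at least 1 TPM, Aldoa stood at percentile 98.7 and Hk1 at percentile 32.2, and all 10 enzymes were expressed. The unit matters for this order, since a gene with long introns is divided by a long span. Hk1 spans 71.7 kb and Pfkp 67.5 kb, but Aldoa spans 2.72 kb and Tpi1 3.71 kb. Exonic reads were also divided by the length that exons of all annotated transcripts of the gene cover within the record. Hk2 then reached a density of 121 and Hk1 36.8, and Pfkl and Pfkp had 68.4 and 67.1. Aldoa (469), Eno1 (192), Tpi1 (180) and Pgam1 (135) remained the 4 highest of the 10 coding records. This length counts exons of other isoforms too, and was 11935 bases for Pfkp, 5969 for Hk2 and 1982 for Pgam1. The order by the exons of 1 isoform was not computed.

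How far a single isoenzyme dominated differed between steps. Aldoa held 97.1% of the summed TPM of the coding records of Aldoa and Aldoc. Pgam1 held 75.1% of the phosphoglycerate mutases, with Pgam2, the muscle form, at 12.4 TPM and Bpgm, which makes the 2,3-bisphosphoglycerate of red cells, at 3.35 TPM. The phosphofructokinases were more even, at 17.2 TPM for Pfkl (liver type), 15.4 TPM for Pfkp (platelet type) and 4.70 TPM for Pfkm (muscle type). Among hexokinases the order depended on the record and the unit. Of the coding records, the ADP-dependent glucokinase Adpgk was highest per span at 20.2 TPM, whereas Hk2 was highest by exonic density, with 57.7% of the step. Hk2 was also highest per span when the highest record of each gene was taken, through its lncRNA record (122 TPM against 29.4 for Adpgk). Hkdc1 had 1.29 TPM. Eno1 held 57.0% of the summed enolase level, and Eno1b, a copy of Eno1 discussed below, had 57.6 TPM. By the deposited TPM over exons, however, Eno1b had 128 and Eno1 78.8, so the level of Eno1b and the share of Eno1 are uncertain. The muscle form Eno3 had 6.98 TPM and the neuronal form Eno2 had 0.964 TPM. The neighbouring steps in the pathway stood high too, with Gapdh at 534 TPM and Pkm at 126 TPM. Pgk1 was not analysed here, as the table covers chromosomes 1 to 19.

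**Figure D1:**
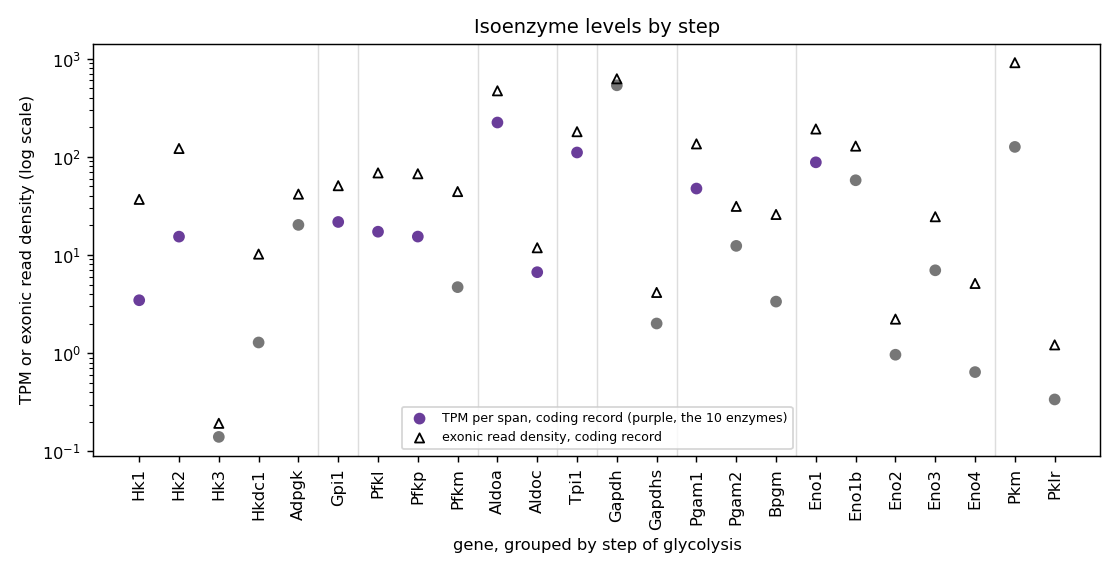
Level of each isoenzyme of glycolysis, grouped by step along the x axis, on a logarithmic y axis. Filled points are TPM per transcript span of the protein-coding record, in purple for the 10 enzymes described (Aldoa highest at 223 TPM). Open triangles are exonic reads per length of all annotated exons, which lift intron-rich genes such as Hk2 from 15.4 to 121. Eno1b, which spans only 1.75 kb, rose from 57.6 to 128.

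The question put to the allelic reads was whether both chromosomes contribute equally to each enzyme. CAST and S129 reads of each record were compared by a two-sided exact binomial test with Benjamini-Hochberg adjustment over the 18632 records. Allele-specific expression (ASE) was called at an adjusted p of at most 0.05, a fold of at least 2 and a level of at least 1 TPM. All 16 records of the 10 enzymes passed the level filter, and they held from 22 to 7401 allelic reads. ASE was found in 4 of the 10 enzymes, Aldoc, Tpi1, Pgam1 and Eno1, and in each of them CAST was higher.

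By records, 6 of 16 (37.5%) were ASE, while 14.1% of all 15935 tested records were. All 6 were CAST, where the background is 8.33%, and 0 were S129, where it is 5.78%. At an unadjusted binomial p of at most 0.05, 3 enzyme records were higher on S129 (the coding records of Hk2, Gpi1 and Aldoa) against 25.1% of all records, and 10 were higher on CAST against 27.7%. Of the coding records alone, 4 of 10 were ASE against 12.7% of all coding records. The adjusted p was at most 0.05, whatever the fold, in 11 of 16 enzyme records and in 48.3% of all records. The enzyme records were deeper than most, with a median of 1684 allelic reads against 397 over all tested records, and the part of depth in these shares was not tested. Their median log2 fold change (CAST over S129) was 0.43, beside 0.01 over all tested records, whose quartiles were −0.33 and 0.39. The calls depend on how far reads of a gene are independent: if reads within a gene were correlated at 0.05, none of the 16 records would be called (beta-binomial test, 2 with an unadjusted p of at most 0.05), and 487 of all records (3.06%) would be. At a correlation of 0.01, 5 of the 16 stayed ASE, against 12.1% of all records, and Tpi1 did not. At that correlation, 6 of the 16 had an adjusted p of at most 0.05: these 5 and Hk1.

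**Figure D2:**
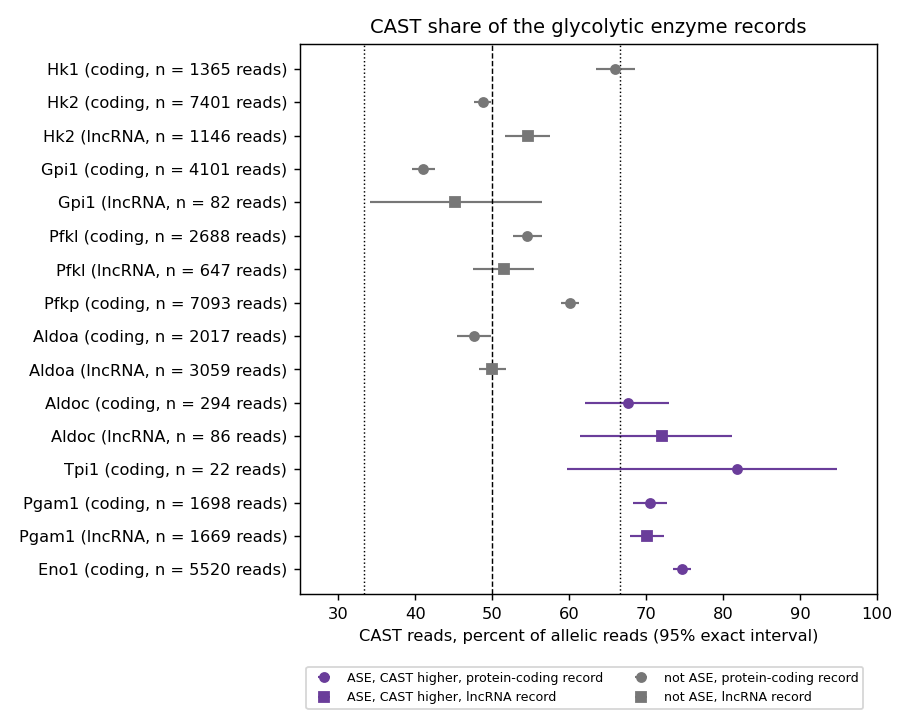
CAST reads as percent of allelic reads for the 16 enzyme records (points, circles for coding and squares for lncRNA records), with 95% exact intervals for counting error of the pooled replicates. The dashed line marks equal shares and the dotted lines a 2-fold difference to either side. The 6 ASE records (purple) lie from 67.7% to 81.8%, and Hk1, at 66.0%, lies just below the upper dotted line.

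Eno1 (chr4:150237240-150245333, plus strand, mm10), the ubiquitous enolase that makes phosphoenolpyruvate, had the best supported imbalance. It had 4123 CAST and 1397 S129 reads over 54 variants, or 74.7% CAST (95% interval 73.5 to 75.8). CAST was 2.95-fold higher (2.78 to 3.14), a log2 fold change of 1.56 (SE 0.04, adjusted binomial p = 3.67e-305). The whole interval thus lay past the 2-fold threshold. Split by these shares, its 87.7 TPM comprised 65.5 TPM from CAST and 22.2 TPM from S129. Of its variants, 38 lay in introns and 16 in exons, and 20 of 54 (37.0%) carried the non-reference base on S129, so both haplotypes differed from the reference genome at many sites. That share was 11.1% over the variants of all records, and 12.2% in 5 genes within 500 kb of Eno1. The reason for the higher share of Eno1 was not tested.

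Pgam1 (chr19:41911923-41918660, plus strand), the brain-type phosphoglycerate mutase found in most tissues, also lay wholly past 2-fold. Its coding record had 1197 CAST and 501 S129 reads over 26 variants, 70.5% CAST (68.3 to 72.7), and CAST was 2.39-fold higher (2.15 to 2.66, adjusted binomial p = 4.57e-64). Its lncRNA record is nested in the coding record, holds 24 of the same 26 variants and gave nearly the same share, 70.2% CAST from 1171 and 498 reads. The 2 variants outside it had 26 CAST and 3 S129 reads (89.7%, 72.6 to 97.8). That interval did not overlap the one of the lncRNA record (67.9 to 72.3), and both cover counting error only. Both records held 20 intronic variants, beside 6 exonic ones in the coding record and 4 in the lncRNA record. The reason for the higher share outside it was not tested. With most variants in common, the lncRNA record adds little that is separate from the coding one.

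Aldoc (chr11:78322968-78327781, plus strand), the brain form of aldolase, was a low ASE gene near the threshold. It had 199 CAST and 95 S129 reads over 8 variants, all in exons, giving 67.7% CAST (62.0 to 73.0) and a 2.09-fold difference (1.63 to 2.7, adjusted binomial p = 7.77e-09). The interval includes 2-fold. The nested lncRNA record had 62 and 24 reads (72.1%, 61.4 to 81.2), and the 5 variants outside it had 137 and 71 (65.9%, 59.0 to 72.3). Both sets of variants favoured CAST, with overlapping intervals. Since Aldoa supplied nearly all aldolase RNA, the imbalance of Aldoc concerned 4.52 TPM from CAST against 2.16 TPM from S129.

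Tpi1 (chr6:124810586-124814296, minus strand), which interconverts the triose phosphates left by aldolase, had the largest fold and the least evidence. Its call rested on 18 CAST and 4 S129 reads at 2 intronic variants, 81.8% CAST (59.7 to 94.8). This is 11 reads per variant, which is below the minimum per variant that the study's methods state, and how that minimum was applied is not given in the sources used here. The fold of 4.50 had an interval from 1.48 to 18.3 and an adjusted binomial p of 0.0111. Although Tpi1 was among the highest expressed of the 10, at 110 TPM, only 6.88% of tested records had fewer allelic reads. Any split of its TPM by allele is correspondingly loose. It also rests on intronic variants only, while by an approximate measure 99.0% of its reads fell in exons, which held no variant. Whether the exonic reads share this imbalance was not tested.

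**Figure D3:**
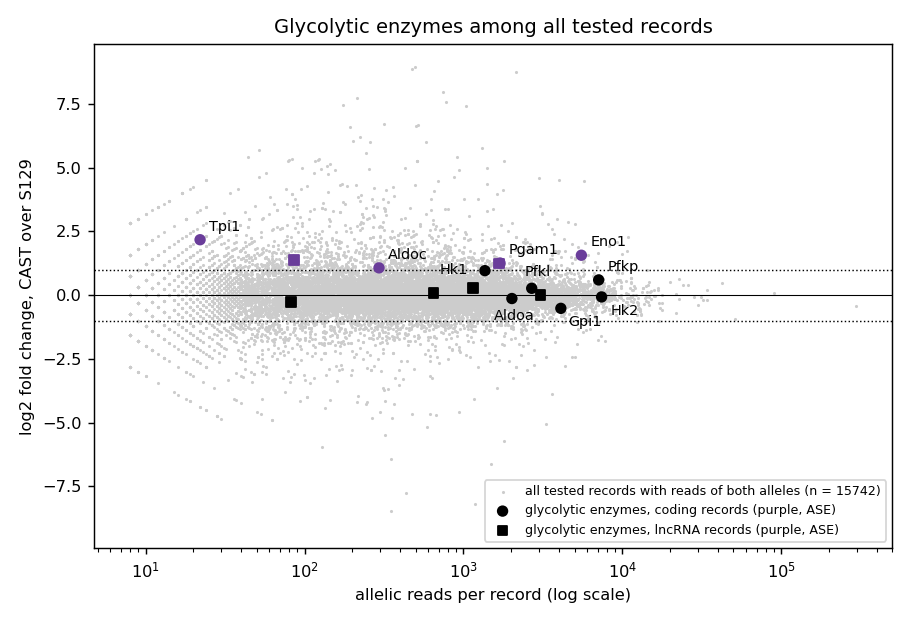
Log2 fold change of CAST over S129 reads (y axis) against allelic reads per record (x axis, logarithmic) for all tested records with reads of both alleles (grey) and the glycolytic enzymes (circles, coding; squares, lncRNA; purple, ASE). Dotted lines mark the 2-fold threshold. Eno1 combines 5520 reads with a log2 fold change of 1.56, while Tpi1 at 2.17 rests on 22 reads.

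The hexokinases that begin the pathway differed in balance. Hk1 (chr10:62268855-62340542, minus strand), the widely expressed form, had 901 CAST and 464 S129 reads over 23 variants, 66.0% CAST (63.4 to 68.5). Its fold of 1.94 (1.73 to 2.18, adjusted binomial p = 2.06e-31) fell just below the 2-fold threshold, and at a threshold of 1.5-fold it would be ASE. Hk2 (chr6:82725025-82774454, minus strand), the inducible form typical of muscle and of proliferating cells, was close to even, with 3607 and 3794 reads over 124 variants (48.7%, 47.6 to 49.9, adjusted binomial p = 0.0634). The intervals of the shares of Hk1 and Hk2 did not overlap. An Hk2 lncRNA record of 1.25 kb at the 3′ side of the gene had 122 TPM and leaned the other way, with 626 CAST and 520 S129 reads (54.6%, 51.7 to 57.5, adjusted binomial p = 0.00528). The rest of the Hk2 coding record gave 47.7% CAST (46.4 to 48.9), so the shares of the 3′ stretch and of the remaining gene had intervals that did not overlap. These intervals cover counting error only. At a correlation of 0.01 between reads, the adjusted beta-binomial p of the Hk2 lncRNA record was 0.703.

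Gpi1 (chr7:34204038-34230242, minus strand) had an S129 excess with an adjusted p under the threshold, below 2-fold. It had 1684 CAST and 2417 S129 reads over 104 variants, 41.1% CAST (39.6 to 42.6), and S129 was 1.44-fold higher (adjusted binomial p = 3.6e-29). With a correlation of 0.01 between reads the adjusted beta-binomial p was 0.281, and over all alternatives it ran from 1.49e-31 to 1. The coding records of Hk2 (0.0130) and Aldoa (0.0337) also passed toward S129 when the null was the CAST share of all reads (adjusted binomial p). The lncRNA record nested in it had 37 and 45 reads (45.1%, 34.1 to 56.5). A long intergenic noncoding gene on the opposite strand, Gm26762, overlaps 5482 bases (20.9%) of Gpi1. Whether the allelic counting used strand is not given in the sources used here, and without it reads of both genes cannot be told apart.

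Of the phosphofructokinases, Pfkp and Pfkl leaned to CAST, by unequal amounts. Pfkm, which is not among the 10, leaned to S129 with 240 CAST and 324 S129 reads (42.6% CAST, 38.4 to 46.8). Pfkp (chr13:6581182-6648725, minus strand) had 4266 CAST and 2827 S129 reads over 156 variants, 60.1% CAST (59.0 to 61.3), a 1.51-fold difference with an adjusted binomial p of 3.41e-64. Pfkl (chr10:77986947-78009807, minus strand) had 1467 and 1221 reads over 23 variants, 54.6% (52.7 to 56.5), a 1.2-fold difference with an adjusted binomial p of 9.88e-06. Neither reached 2-fold, and both intervals lay under it. With a correlation of 0.01 between reads, the adjusted beta-binomial p was 0.185 for Pfkp and 0.694 for Pfkl, and at 0.05 it was 1 for both. The nested Pfkl lncRNA record was close to even (333 and 314 reads, 51.5%, 47.5 to 55.4), while the remaining variants gave 55.6% (53.4 to 57.7).

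Aldoa (chr7:126796271-126798993, minus strand), the main aldolase and the muscle and ubiquitous form, was close to even. Its coding record had 961 CAST and 1056 S129 reads over 10 variants (47.6%, 45.4 to 49.9, adjusted binomial p = 0.0738), and its lncRNA record at 288 TPM had 1530 and 1529. Of the span of Aldoa, 43.0% is overlapped by Fam57b on the opposite strand, with the same limit as for Gpi1. Aldoa and Aldoc encode isoenzymes with 75.9% identity over their coding sequences, and the intervals of their CAST shares did not overlap. Added over the coding records of all 10 enzymes, 548 TPM split into 61.5% from CAST and 38.5% from S129. Without Tpi1, whose split is loose and comes from intronic variants only, 438 TPM remained, with 56.4% from CAST.

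**Figure D4:**
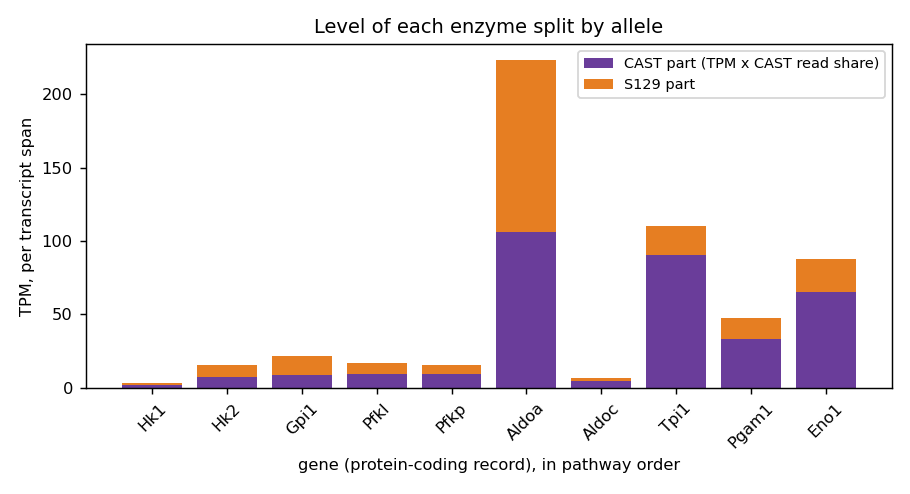
TPM per transcript span of the coding record of each enzyme (bars), split into a CAST part (purple) and an S129 part (orange) by the share of allelic reads, with no error bars because the replicates are pooled. Aldoa, at 223 TPM, was shared almost evenly, while 65.5 of the 87.7 TPM of Eno1 came from CAST. The split of Tpi1 rests on 22 reads at 2 intronic variants.

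Reads of near-identical copies can be assigned to the wrong gene. In the GENCODE M21 annotation of the same genome, copies with at least 90% identity over at least 80% of the coding sequence were found for Eno1 (6), Pgam1 (3), Aldoa (3) and Tpi1 (1), and for none of the other 6 enzymes. Pgam1-ps2, a processed pseudogene, was 100% identical to the coding sequence of Pgam1. The Eno1 copies include Eno1b on chromosome 18, 99.4% identical, which had 62 CAST and 556 S129 reads at 3 variants (10.0% CAST, 7.78 to 12.7), thus opposite in direction to Eno1. Copies were matched over coding sequence, which introns are not part of. In the coding records, variants in introns were 2 of 2 for Tpi1, 20 of 26 for Pgam1, 38 of 54 for Eno1 and 6 of 10 for Aldoa. All 3 variants of Eno1b lay in exons. Values of Eno1, Eno1b, Pgam1, Aldoa and Tpi1 are uncertain as far as reads were exchanged with copies. The part of the copies in their allelic shares was not tested.

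Neighbouring genes give a measure of the local allelic share. For Eno1, the nearest expressed gene with many reads, Rere, which encodes a transcriptional corepressor, had 50.2% CAST (48.1 to 52.4). On the other side, the lncRNA record of Slc2a5, a fructose transporter, had only 11 allelic reads. Of these, 9 were CAST and 2 S129 (81.8%, 48.2 to 97.7), the direction of Eno1. Both neighbours of Aldoc lay within 1 kb, with 56.9% (54.5 to 59.3) for Spag5, a spindle protein, and 49.6% (46.7 to 52.6) for Pigs, a subunit of the GPI anchor transamidase. Usp5, a deubiquitinase 0.723 kb from Tpi1, had 46.0% (42.5 to 49.6). Pgam1 lay between Rrp12, a ribosome biogenesis factor, with 51.2% (49.0 to 53.4) and Exosc1, an exosome subunit, with 62.8% (60.7 to 64.9). Apart from Slc2a5, the neighbours of these 4 ASE enzymes had intervals below those of the enzymes. Hk1 differed, as the lncRNA record of Tspan15, 74.7 kb away, was ASE toward CAST with 75.9% (68.5 to 82.4), while Hkdc1 on the other side had 54.8%. Pitrm1, 0.667 kb from Pfkp, leaned to S129 (43.5%, 42.3 to 44.7) where Pfkp leaned to CAST. Around Aldoa, the median share of 20 tested genes within 500 kb was 42.7% CAST, with 5 of them ASE toward S129 and 1 toward CAST. In 11 of the 16 enzyme records, all variants carried the non-reference base on CAST, and the other 5 had some on S129 too. Of the variants of all records, 11.1% carried the non-reference base on S129. The part of mapping to the reference base in these shares was not tested.

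**Figure D5:**
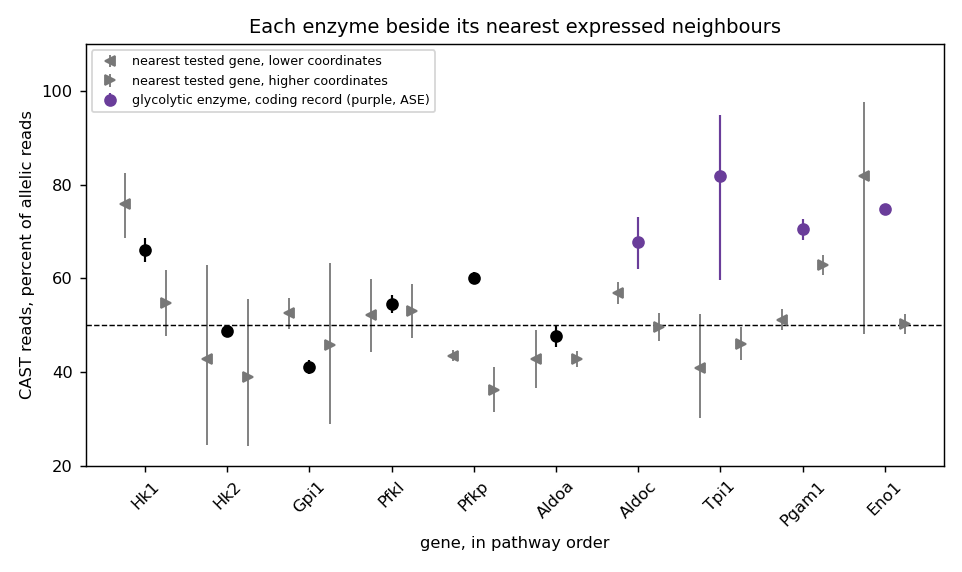
CAST percent of allelic reads of the coding record of each enzyme (circles, purple for ASE) between its nearest expressed genes at lower (left triangles) and higher coordinates (right triangles), with 95% exact intervals. Eno1 (74.7%) stands above Rere (50.2%), and Tpi1 (81.8%) above Usp5 (46.0%), whereas Tspan15 (75.9%) stands above Hk1 (66.0%). Slc2a5, with few reads, stands at 81.8% on the other side of Eno1.

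Promoter sequence is shown for Eno1 and Pgam1, the ASE enzymes whose intervals lay wholly past 2-fold, as context for these shares. Each is the 250 bases before the RefSeq start on GRCm38.p6, 5′ to 3′ on the strand of the gene. This is the C57BL/6J reference, which does not show the CAST or S129 alleles. Capitals mark ACGTG or GCGTG on either strand, the core of hypoxia response elements.
Pgam1, chr19:41911621-41911870, plus strand: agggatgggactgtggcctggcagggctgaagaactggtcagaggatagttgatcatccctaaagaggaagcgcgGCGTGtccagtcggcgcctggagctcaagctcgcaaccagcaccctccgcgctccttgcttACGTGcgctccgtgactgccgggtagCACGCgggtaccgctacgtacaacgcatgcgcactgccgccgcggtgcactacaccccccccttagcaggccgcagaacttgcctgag
Eno1, chr4:150236974-150237223, plus strand: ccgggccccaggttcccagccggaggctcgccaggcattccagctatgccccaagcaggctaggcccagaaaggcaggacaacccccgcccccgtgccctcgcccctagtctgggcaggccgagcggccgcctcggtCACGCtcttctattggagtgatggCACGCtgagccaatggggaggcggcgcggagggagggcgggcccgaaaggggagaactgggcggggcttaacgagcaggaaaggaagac
Pgam1 held 3 such cores and Eno1 2, and 8 of the 10 enzymes held at least 1, against 38.6% of 32851 promoter windows of this length. The GC box letters GGGCGG occurred in 7 of 10 enzymes against 32.7% of all windows, and the E-box letters CACGTG in 0 of 10 against 6.02%. Matches are letters only, and GC-rich windows hold more of them: the 10 windows had 55.2 to 69.6% GC, and the median window had 52.4%.

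The other genes of glucose metabolism give the setting of these results. A list of 76 further genes, from glucose transport to the pentose phosphate pathway and its regulators, had 67 tested records in 52 genes. Of these records 4 were ASE toward CAST and 3 toward S129 (10.4%, against the 14.1% of all records), with a median log2 fold change of −0.02. Toward CAST were Pgam2 (15 and 3 reads), Pdha2, the testis form of a pyruvate dehydrogenase subunit (57 and 18), and both records of Epas1, the hypoxia factor HIF-2α. The coding record of Epas1 was the deepest of these, with 4107 CAST and 1618 S129 reads (71.7%, 70.6 to 72.9). Toward S129 were Eno1b, with the limit given above for copies, Gys1, a glycogen synthase (198 and 398 reads), and Ldhc, the testis lactate dehydrogenase. Ldhc had 0 CAST and 44 S129 reads at 1.03 TPM, just over the level filter, and lost its call with a minimum of 5 TPM. With 3 reads over the pooled replicates taken for CAST, S129 would be 14.7-fold higher. That fold rests on the chosen 3 reads and is not a lower bound, as the exact interval of the CAST share reached 8.04%. The genes of the neighbouring steps with high levels were close to even, such as Gapdh (209 and 189 reads), Pkm (4717 and 5125) and Ldha (237 and 217). So was Slc2a1, the main glucose transporter, with 1598 and 1791 reads.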

How the data were processed

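Total RNA of 2 F123 replicates was sequenced as pairs of 75-base reads. Per the study's methods, reads were aligned to mm10 with STAR (version 2.7.2c) and duplicates removed. The deposited TPM values were made by the authors from HTSeq counts, scaled by transcript length, for 1 isoform per gene and transcript biotype. The deposited allelic read counts were summed by the authors over the variants of a record. No replicate is named for them, and they were taken here to pool both replicates, which the study's methods do not state. The deposited fraction columns hold the CAST share of variants and reads. The deposited p-values and log2 fold changes are the authors' own comparison and were not used.

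CAST and S129 reads were compared by two-sided exact binomial tests with Benjamini-Hochberg adjustment over 18632 records, and ASE was called at a fold of 2, adjusted p of 0.05 and 1 TPM. Intervals are exact (Clopper-Pearson, 95%). The calls were run on simulated reads drawn independently, which cannot show how they behave with reads correlated within a gene. Copies were searched with blastn (2.17.0). Other computations used Python (3.11.15) and scipy (1.17.1). Named are all 10 enzymes, isoenzymes of their steps, nearest expressed neighbours and other listed genes with ASE. Near-even genes among the list and the markers were named after their values were seen. Members and lists were chosen with earlier results of these data known. Alternatives changed read, variant, TPM, fold and p minimums, the null share and the correlation of reads within a gene. Some listed isoenzymes are not reported here.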

Additional observations from a re-analysis of the deposited data

How the results depend on the processing

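Across 14 alternatives, the ASE count of the enzyme records was between 4 (of 13 with at least 100 reads, and of 10 coding records) and 8 (of 16, at 1.5-fold), except 0 of 16 with a correlation of 0.05 between reads of a gene (0 toward CAST as well), and no alternative gave an S129 call. Tpi1 lost its call in 4 alternatives, at a correlation of 0.01 (adjusted beta-binomial p = 0.0594), at 0.05 (0.509), with reads divided by 2 (binomial, 0.159) and at an adjusted p of 0.01. It was not tested under minimums of 50 or 100 reads or 3 variants. With a minimum of 1.5-fold, Hk1 and Pfkp became ASE. For the other listed genes, the count of 7 became 4 (2 toward CAST) with at least 100 reads, 2 (0 toward CAST) at a correlation of 0.05, and 16 (8 toward each allele) at 1.5-fold. The cause of these changes was not tested.

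The planned TPM of a step took the highest record of each gene (156 for hexokinases, 40.4 for Gpi1, 37.3 for phosphofructokinases, 300.1 for aldolases, 66.1 for phosphoglycerate mutases and 155 for enolases), while the shares above are of coding records. By the highest record the shares of Aldoa, Pgam1 and Eno1 would be 95.9, 76.2 and 56.6%. With coding records only, the TPM was 40.5 for hexokinases, 21.7 for Gpi1, 230 for aldolases, 63.2 for phosphoglycerate mutases, 154 for enolases and 126 for pyruvate kinases. With all records summed, it was 192 for hexokinases, 62.1 for Gpi1, 53.5 for phosphofructokinases, 530 for aldolases, 1009 for glyceraldehyde phosphate dehydrogenases, 114 for phosphoglycerate mutases, 156 for enolases and 127 for pyruvate kinases. The density over exons, an alternative added after seeing the data, was 210 for hexokinases, 50.7 for Gpi1, 180 for phosphofructokinases, 481 for aldolases, 180 for Tpi1, 626 for glyceraldehyde phosphate dehydrogenases, 192 for phosphoglycerate mutases, 352 for enolases and 908 for pyruvate kinases.

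No paired analysis was possible because no column names a replicate, and for the same reason no replicate was left out. Depth limits Tpi1 most, with 22 allelic reads.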

Other observations

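Values of the table also bear on where reads of each enzyme fell. In the deposited table both the exon-based and the transcript-based TPM appear to be scaled by the whole transcript span, since their ratio was 1.22 (within 0.001) in 571 of 828 single-exon records and lower in 96.6% of 17054 multi-exon records. Relative to that ratio, reads in exons made up 98.6% for Aldoc, 99.0% for Tpi1 and 93.9% for Pfkl, but 36.5% for Gpi1, beside a median of 72.6% over multi-exon records. Eno1 was at 73.7% and Pgam1 at 68.7%. The Hk2 lncRNA record lies within an exon and still gave 57.3%, so these shares are approximate.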
